A study of Mus musculus with 768 samples.

Results

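Matrix CAF-like (mCAF-like) cells with S100a4 transcripts were compared with mCAF-like cells without them, inside each of 2 mouse mammary tumors. S100A4, also called FSP1, is a small calcium-binding protein of the S100 family that binds non-muscle myosin and has long served as a marker of fibroblasts. Cancer-associated fibroblasts (CAFs) are the mesenchymal cells of a tumor, and those of the matrix type make collagens, proteoglycans and other proteins of the extracellular matrix. S100 proteins form dimers, most of which expose a site for target proteins when they bind calcium, and most of their genes lie in 1 cluster.

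The members were chosen from the measured values. Of 768 sorted wells, 717 held at least 10000 reads of endogenous genes and at least 1000 detected genes. In each well M was the mean log2(RPKM + 1) of Dcn, Lum, Mfap5, Olfml3, Smoc2 and Serpinf1, and V that of Rgs5, Higd1b, Kcnj8, Rgs4, Abcc9 and Gja4, where RPKM is reads per kilobase of transcript, scaled to the depth of the cell. The wells with M of at least 4 and above V were taken as mCAF-like, 96 in tumor 1 and 90 in tumor 2. Of these, 97 with at least 5 S100a4 reads were the S100a4-positive cells and 69 with 0 reads the S100a4-negative cells, and 20 cells with 1 to 4 reads stood between them and were not compared. By tumor, 41 positive cells were set against 42 negative ones in tumor 1 and 56 against 27 in tumor 2.

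All cells came from FVB/N-Tg(MMTVPyVT)634Mul/J mice aged 14 weeks, which carry the polyoma middle T oncogene under the mouse mammary tumor virus promoter. Live cells negative for EpCAM, CD45, CD31 and NG2 were sorted into plates and sequenced by Smart-seq2, a full-length method with 1 library per cell and no molecular identifiers. Each plate held cells of 1 tumor, so that tumor and plate cannot be told apart and the tumor was the replicate (n = 2). NG2 is a pericyte antigen, and the gate removed cells that carried it on their surface.

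Of fibroblast markers outside the rule, Pdgfra, a receptor typical of fibroblasts, had a read in 38 of 42 negative and 39 of 41 positive cells of tumor 1, and in 20 of 27 and 50 of 56 of tumor 2. M ran from 4.59 to 11.8 in tumor 1 and from 4.07 to 11.4 in tumor 2, with medians of 10.3 and 9.71. V had medians of 1.01 and 0.983 and reached 7.87 and 7.88, and at least 4 of the 6 V genes had a read in 37 of 96 and 31 of 90 mCAF-like cells, so some members also held reads of V genes. In 1 cell M was 5.56 and V 5.54. M was under 8 in 7 of 42 S100a4-negative and 5 of 41 S100a4-positive cells of tumor 1, and in 8 of 27 and 15 of 56 of tumor 2. Ptprc, which encodes CD45, was at 0 reads in every compared cell, as were the lymphocyte genes Cd3e and Ms4a1 and the endothelial genes Cdh5 and Tie1. Levels summed over cells are given as CPM, reads per 1000000 endogenous reads of the summed library. The 20 macrophage genes together reached 45 CPM in the S100a4-negative and 22.3 in the S100a4-positive cells of tumor 1, and 15 and 24.6 in tumor 2. The 26 epithelial genes reached 385.5 and 395.8 in tumor 1 and 230.6 and 464.3 in tumor 2, of which Trf, which is also among the genes of smallest p, gave 59.6 and 262.4 in tumor 1 and 14.4 and 213.2 in tumor 2, and Epcam had a read in 4 of 42, 3 of 41, 3 of 27 and 9 of 56 cells in that order. The 17 endothelial genes summed to 194.4 and 266.9 in tumor 1 and to 462.5 and 185.6 in tumor 2. Without the cells that had an Epcam or Ptprc read, 0 of the named genes changed direction, and the part of the other transcripts in the results was not tested.

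S100a4 lies on the forward strand of chromosome 3 (mm10, RefSeq annotation, 90603770 to 90606045). Its main transcript in the GENCODE annotation has 3 exons, of which exon 1 is non-coding and the coding sequence begins in exon 2. In tumor 1, the S100a4-positive cells held from 5 to 723 S100a4 reads with a median of 19, and their RPKM ran from 30.2 to 5519.0 with a median of 170.8. In tumor 2 they held from 6 to 732 reads with a median of 61.5, and RPKM ran from 25.8 to 5159.8 with a median of 458.6. Levels thus varied widely among cells called positive, and the median of tumor 2 lay higher. At 100 reads or more there were 7 cells in tumor 1 and 18 in tumor 2.

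The cells next to the threshold overlapped in level. Those just outside it, with 1 to 4 reads, had RPKM of 5.43 to 124.1 in the 13 cells of tumor 1 and of 7.73 to 39.9 in the 7 cells of tumor 2. Those just inside, with 5 to 9 reads, had RPKM of 30.2 to 220.3 in 10 cells of tumor 1 and of 25.8 to 102.6 in 5 cells of tumor 2. A read count of 5 is therefore not a fixed level of expression, since it falls at a lower level in a cell with more reads.

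S100a4-positive cells made up 42.7% of the mCAF-like cells of tumor 1 (41 of 96, exact 95% binomial interval 32.7 to 53.2) and 62.2% of those of tumor 2 (56 of 90, interval 51.4 to 72.2). These intervals cover counting error only. Among cells of the vascular type (vCAF-like, V of at least 4 and above M) the shares were 34.5% (interval 28.7 to 40.6) and 31.9% (26 to 38.3). When every cell was thinned to 50000 reads, which left out 7 and 5 mCAF-like cells that were shallower, the share with at least 5 reads was 22.5% (20 of 89) and 48.2% (41 of 85) in the mCAF-like cells, and 24.4% and 25.4% in the vCAF-like cells. The order of the 2 classes thus depended on depth in tumor 1 and was the same either way in tumor 2.

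Depth differed between the groups. S100a4-positive cells had a median of 287388 endogenous reads and S100a4-negative cells 226627 in tumor 1, and 261012 and 170707 in tumor 2. Median detected genes were 5730 and 4945.5 in tumor 1, and 5609.5 and 4960 in tumor 2, and at 50000 reads per cell they were 4760 and 4254 in tumor 1, and 4720 and 4373 in tumor 2. The median share of spike-in reads was 5.65% in positive and 9.31% in negative cells of tumor 1, and 5.93% and 7.02% in tumor 2. S100a4-positive cells therefore had more reads and more detected genes in both tumors, also at equal depth. M, in contrast, differed little, with medians of 10.5 and 10.1 in tumor 1 and 9.73 and 9.67 in tumor 2.

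**Figure D1:**
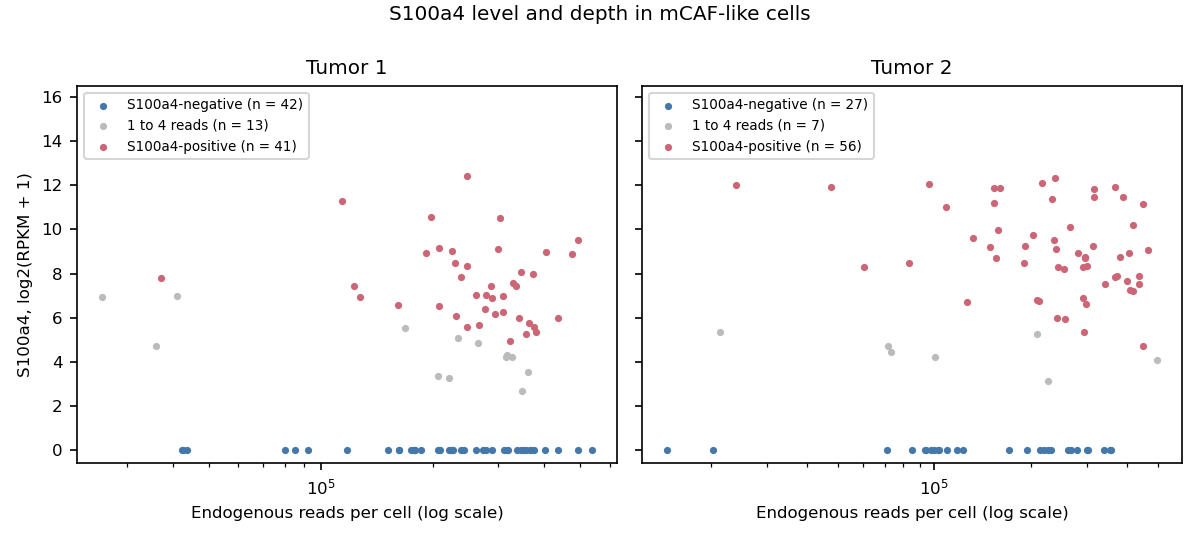
S100a4 as log2(RPKM + 1) on the vertical axis against endogenous reads on a log horizontal axis, 1 point per mCAF-like cell, 1 panel per tumor. The 69 S100a4-negative cells lie at 0 over a wide range of depths, and the cells with 1 to 4 reads overlap the lowest positive cells.

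To ask which other genes went with S100a4, reads were summed over the cells of each group in each tumor, which gave 4 libraries of 10304642 and 4851631 reads (S100a4-negative, tumors 1 and 2) and 11549254 and 14841641 reads (S100a4-positive). Of 11430 genes tested besides S100a4, edgeR's quasi-likelihood test with tumor as a block called 0 genes at an adjusted p of 0.05 (0% called), and 476 had an unadjusted p under 0.05 (4.16% of the genes), 2.56% of all genes with a higher and 1.6% with a lower level in S100a4-positive cells. On simulated counts of the same 4 libraries the test recovered 1 of 100 genes changed by 1 and 6 of 100 changed by 2 on the log2 scale, so differences of these sizes would mostly not be detected. S100a4 itself, on which the cells were chosen, stayed in the ranking for the adjustment and lowers the adjusted p of the genes next to it, and without it the count was 0 as well, with a smallest adjusted p of 0.122.

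The count depended on the method. DESeq2 called 82 genes, or 0.717% (64 higher, 0.56%, and 18 lower, 0.157%). edgeR on cells thinned to 50000 reads called 33, or 0.288% (24 higher, 0.21%, and 9 lower, 0.0787%). limma on mean log2(RPKM + 1) called 3.22% of the genes, 3.18% higher and 0.035% lower. The limma values were shifted upward as a whole, with a median log2 difference of 0.27 over all genes, while the median in the main test was 0.02. Of the 33 genes called after thinning, 32 had an unadjusted p under 0.05 in the same direction in the main test 27 were also called by DESeq2 (27 of its 82), and 12 by limma, which are fits to the same cells and not separate evidence. Of the 33 and of the 82 genes, 1 each was an M or V gene, which chose the cells. The values that follow are differences between libraries of 2 tumors that did not pass the main test, and p denotes edgeR's unadjusted value.

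Genes of smallest p that were higher in the S100a4-positive cells of both tumors, with a read in at least 5 such cells of each, were Rgs2, Dpt, Tnxb, Wisp2, Fmod, Cfb, Ptx3, Ly6c1, Trf and Ogn. Dpt encodes dermatopontin, a matrix protein that binds decorin and collagen. Its level was 56.7 CPM in negative and 328.4 in positive cells of tumor 1, and 45.8 and 208.7 in tumor 2. The log2 fold change was 2.31 ± 0.26 (SE, p = 2.0e-04, adjusted p = 0.223 in edgeR). The positive library was the higher in both tumors, as the naming rule required. A read was seen in only 12 of 42 negative and 15 of 41 positive cells of tumor 1, and in 9 of 27 and 16 of 56 of tumor 2. In each tumor 3 positive cells, described further on, held 80% and 70% of the positive reads.

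Tnxb, the gene of tenascin X, which organises collagen and elastic fibres, stood at 4.46 and 102.8 CPM in tumor 1 and at 0.824 and 102.01 in tumor 2. Its log2 fold change was 5.34 ± 0.63 (p = 2.4e-04, adjusted p = 0.251 in edgeR). Only 6 of 41 and 7 of 56 positive cells had a read, and the cell with most reads held 47.6% and 64.9% of those in the 2 libraries.

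Fmod encodes fibromodulin, a small leucine-rich proteoglycan that regulates collagen fibril assembly. It stood at 42.4 and 280.5 CPM in tumor 1 and at 32.2 and 135.97 in tumor 2 (log2 fold change 2.35 ± 0.30). Ogn, the related osteoglycin, stood at 90.9 and 272.3, and at 56.1 and 163.7 CPM (1.51 ± 0.24), with 57.3% of its positive reads of tumor 1 in 3 cells described further on, a ratio of 1.36 there without them, and a log2 fold change of 0.81 with M of at least 8. Wisp2, a matricellular protein of the CCN family, had 17.7 and 165.1 CPM in tumor 1 and 4.53 and 153.1 in tumor 2 (3.99 ± 0.50). Its positive reads came from 8 of 41 and 14 of 56 cells, with 55.4% and 23.2% of them in 1 cell. Those of Fmod came from 15 of 41 and 17 of 56 cells, with 43.1% and 29.2% in 1 cell. For Fmod, Ogn and Wisp2 the positive library was the higher in both tumors, as the rule that named them required.

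Rgs2, a brake on G protein signalling, had 11.5 and 98.5 CPM in tumor 1 and 6.39 and 86.4 in tumor 2 (3.35 ± 0.37). Cfb, complement factor B of the alternative pathway, had 6.99 and 57.5, and 13.4 and 80.7 CPM (2.76 ± 0.40). Ptx3, a secreted pattern-recognition pentraxin, had 2.72 and 29.2, and 3.71 and 54.3 CPM (3.58 ± 0.52). Each was read in no more than 15 positive cells of a tumor, and 1 cell held 56.9% and 26.2% of the positive reads of Rgs2 and 76.6% and 51.5% of those of Ptx3. For Cfb, 3 cells described further on held 92% of the positive reads of tumor 1, and without them the ratio there was 0.697.

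Ly6c1, a surface protein of the Ly6 family, had 26.5 and 138.3 CPM in tumor 1 and 10.9 and 210.2 in tumor 2 (3.22 ± 0.49). Trf, the iron carrier transferrin, had 59.6 and 262.4, and 14.4 and 213.2 CPM (2.92 ± 0.45). In tumor 1, 82% of the Trf reads of the positive library came from 1 cell, and with only cells of M of at least 8 its log2 fold change was 0.95.

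**Figure D2:**
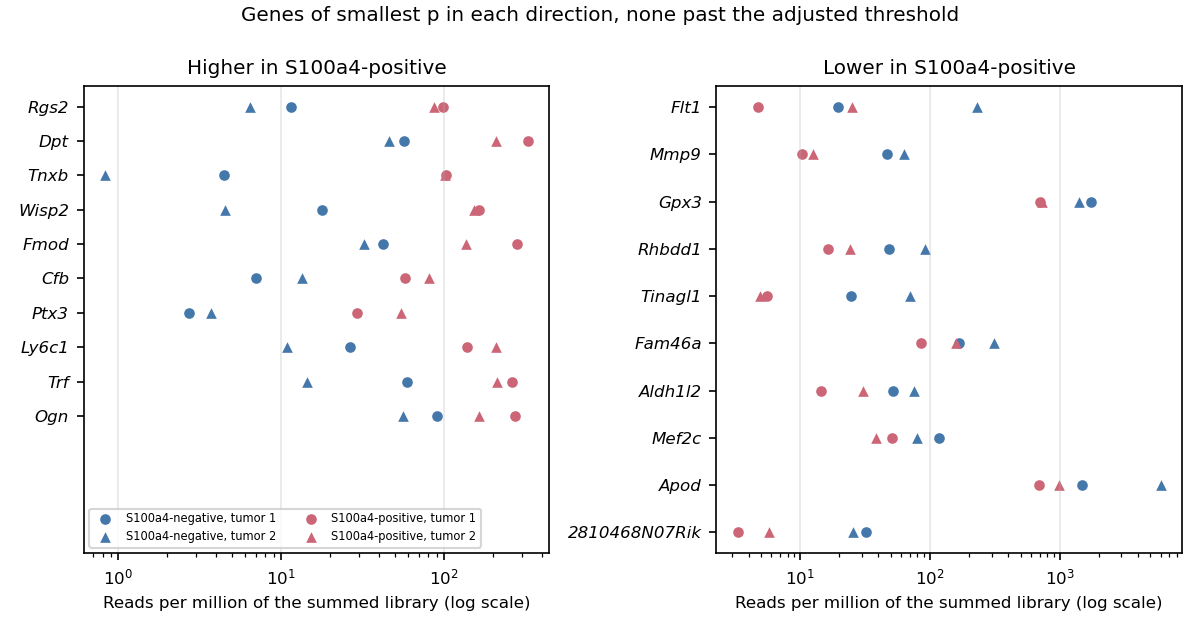
Level of the 10 genes of smallest p in each direction under the naming rule, in CPM of summed libraries on a log axis. The rule asked for the same direction in both tumors and a read in at least 5 cells of the higher group of each. M and V genes were left out. S100a4-negative libraries are in blue, S100a4-positive ones in red, tumor 1 as circles and tumor 2 as triangles. In each tumor the groups are ordered alike for all 20 genes, by the rule that chose them, and none passed an adjusted p of 0.05.

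The M and V genes, which chose the cells, were left out of both lists of genes of smallest p. Those lower in S100a4-positive cells, under the same conditions, were Flt1, Mmp9, Gpx3, Rhbdd1, Tinagl1, Fam46a, Aldh1l2, Mef2c, Apod and 2810468N07Rik. Gpx3, the secreted selenium-dependent glutathione peroxidase, was the one of these read in the most cells. It had 1754.0 CPM in negative and 703.2 in positive cells of tumor 1, and 1402.2 and 736.1 in tumor 2, with a log2 fold change of -1.18 ± 0.21 (p = 0.00182, adjusted p = 0.77 in edgeR). No cell held more than 21.4% of its reads in a library. In single cells of tumor 1 the median RPKM was 882.9 in negative (range 0 to 3578.3) and 315.3 in positive cells (0 to 2195.8), and in tumor 2 it was 392.4 (0 to 8419.7) and 83.1 (0 to 4637.4). Cells with 1 to 4 S100a4 reads had medians of 1119.6 and 683.1, nearer to the negative than to the positive cells. Thinned to equal depth, Gpx3 had the lowest Spearman correlation with S100a4 in both tumors among 6343 genes with a read in 25% or more of the cells, -0.39 over 89 cells and -0.42 over 85.

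Mef2c, a transcription factor of muscle and mesenchymal cells, had 118.01 and 50.9 CPM in tumor 1 and 80.2 and 38.5 in tumor 2 (log2 fold change -1.19 ± 0.26). Fam46a, a poly(A) polymerase gene, had 169.1 and 84.9, and 311.9 and 157.9 CPM (-1.04 ± 0.23). These 2 genes, like Gpx3, were read in many cells of both groups, with Fam46a in 36 of 42 negative and 28 of 41 positive cells of tumor 1, and in 20 of 27 and 43 of 56 of tumor 2.

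Some of the other low values rested on single cells in a tumor. Apod, the lipid carrier apolipoprotein D, had 1475.9 and 698.2 CPM in tumor 1 and 6033.0 and 990.3 in tumor 2 (-1.90 ± 0.43), but 1 negative cell held 91.8% of its reads in tumor 2. Flt1, a receptor for vascular endothelial growth factor, had 19.5 and 4.76, and 232.5 and 25.1 CPM (-2.72 ± 0.41), with 86.6% and 69.7% of the negative reads in 1 cell of each tumor. With only cells of M of at least 8 its log2 fold change turned to 2.48. Mmp9, gelatinase B, had 46.4 and 10.3, and 63.5 and 12.6 CPM (-2.31 ± 0.40) and was read in 5 and 6 negative cells. Tinagl1, a basement membrane protein, had 24.5 and 5.54, and 70.3 and 4.92 CPM (-3.05 ± 0.62), with 78.6% and 88.6% of the negative reads in 1 cell. Rhbdd1, Aldh1l2 and 2810468N07Rik had log2 fold changes of -1.80, -1.62 and -2.76. For Aldh1l2, 1 cell held 63.1% and 65.2% of the negative reads of the 2 tumors, while no cell held over 27.3% of the negative reads of Rhbdd1 or over 42.3% of those of 2810468N07Rik.

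Among the gene lists that were followed, that of Schwann and developmental CAF markers had the largest median (2.31) but only 8 tested members. Among those of more than 8, by the median of the fit over both tumors, the farthest from all genes was the list of universal or adventitial fibroblast genes. Such genes mark fibroblasts that lie around vessels and in the loose connective tissue of many organs, with Pi16, Dpp4, Cd34 and Ly6c1 among them. Of 26 tested members 25 had a log2 fold change above 0 (96.2%, against 52.2% of all genes), their median was 1.41 against 0.02, and 12 had an unadjusted p under 0.05 and a higher level, where 2.56% of all genes did. One of those 12, Mfap5, also entered the choice of the cells. No member passed the adjusted threshold, and 2 were called after thinning, Ly6c1 and Efemp1, where 0.288% of all genes were.

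Pi16, a peptidase inhibitor that marks universal fibroblasts, had 304.04 and 429.6 CPM in tumor 1 and 57.3 and 341.1 in tumor 2 (log2 fold change 1.47 ± 0.50, p = 0.0294, adjusted p = 0.999 in edgeR). Cd34, a sialomucin of progenitor cells, had 34.4 and 224.1, and 104.7 and 269.2 CPM (1.98 ± 0.41). Efemp1, the elastic fibre protein fibulin-3, had 38.1 and 150.9, and 17.9 and 257.4 CPM (2.83 ± 0.48). Cd55, which protects cells from complement, had 24.4 and 67.9, and 23.5 and 145.6 CPM (1.99 ± 0.37). Gsn, the actin-severing gelsolin, was read in nearly all cells and had 995.4 and 1498.9, and 591.3 and 1138.1 CPM (0.71 ± 0.21). Dpp4 had 39.4 and 9.97 CPM in positive cells of the 2 tumors, from 4 and 2 cells. Pi16, Cd34, Cd55, Gsn and Dpp4 were picked from the list after their values were seen, apart from Gsn, which the correlation with S100a4 also named.

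Single cells showed where this difference sat. Thinned to 50000 reads, S100a4-negative cells had a read for a median of 8 of the other 27 genes of the list in tumor 1 (range 3 to 13) and 7 in tumor 2 (5 to 11), and S100a4-positive cells for 9 in both (3 to 24 and 3 to 23). The medians were close, and the upper ends were not. In tumor 2, 9 of 25 negative and 35 of 54 positive cells had a read for 8 or more of the genes. In tumor 1, 25 of 39 and 28 of 40 did. A set of 6 mCAF-like cells, 3 in each tumor, had a read for 22 to 24 of these genes. No other mCAF-like cell of that depth had more than 15. All 6 were S100a4-positive, as were 40 of 89 mCAF-like cells of that depth in tumor 1 and 54 of 85 in tumor 2. No vCAF-like cell of 478 reached 20. These 6 cells were found after the values were seen, so they are described and no test was run on them.

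The 6 cells held 42, 61 and 61 S100a4 reads in tumor 1, and from 84 to 552 in tumor 2. Their M ran from 7.61 to 11.02 and their V from 0.00 to 3.90, and they had 153209 to 448052 endogenous reads, so they were neither the deepest nor the shallowest cells. The 3 of each tumor lay in 3 different plate rows. They had 0 reads of Ptprc, Epcam and Pecam1 together, except 1 cell of tumor 2 with 6. Their RPKM of Col12a1 was 0.527 to 22.8, where the median of all S100a4-positive cells was 324.7 in tumor 1 and 200.5 in tumor 2. Acta2 was at or near 0 in 5 of them (RPKM 0 to 1.79) and at 14.6 in the other.

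They held 5.75% and 5.12% of the reads of the positive libraries, but 93.2% and 97.2% of the Tnxb reads, 80% and 70% of those of Dpt, 63% and 90.5% of those of Efemp1, and 74% and 55.9% of those of Ly6c1. Without them the median log2 ratio of the 25 tested list members outside the rule went from 1.20 to -0.06 in tumor 1 and from 1.44 to 0.52 in tumor 2, where all genes had -0.01 and 0.11. Members above 0 in both tumors went from 19 to 7, while over all 11418 genes they went from 3337 to 3260. The remaining ratio of Dpt was 1.23 and 1.44, that of Efemp1 1.55 and 1.44, that of Ly6c1 1.44 and 8.93, that of Tnxb 1.67 and 3.7, and that of Gsn 1.32 and 1.74. The ratio of Pi16 was 0.942 and 5.23, that of Cd34 2.58 and 0.874, and that of Cfb 0.697 and 3.56, so each stood below 1 in one tumor and above it in the other. Dpp4 had 0.822 in tumor 1 and no read left in tumor 2. Rgs2, Wisp2, Fmod and Trf had few or no reads in these cells, at most 8.86% of a library, and without them the ratios were 9.05 and 14.3 for Rgs2, 9.04 and 35.4 for Wisp2, 7.02 and 4.45 for Fmod, and 4.65 and 15.5 for Trf. Some leading genes were thus read mainly in the same 6 cells, and others mainly outside them.

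C3, the central component of complement, was the gene of smallest p in the test besides S100a4 but was read in too few cells for the naming rule. It had 0.097 and 207.9 CPM in tumor 1 and 0.824 and 255.6 in tumor 2 (9.25 ± 0.60, adjusted p = 0.061 in edgeR, and 0.122 with S100a4 left out of the ranking), from 4 and 11 positive cells. The 6 cells held nearly all of its positive reads in tumor 1 and 43.6% in tumor 2. Without them its level was 0.0919 CPM in tumor 1, no higher than in negative cells, and 151.8 CPM in tumor 2. Spon2, a matricellular protein with an adjusted p of 0.1 in edgeR and of 0.15 with S100a4 left out of the ranking, had 74.1% and 96.7% of its positive reads in the same cells, and the remaining positive cells stood at 14.3 and 2.2 CPM, against 0.194 and 0.206 in the negative cells.

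**Figure D3:**
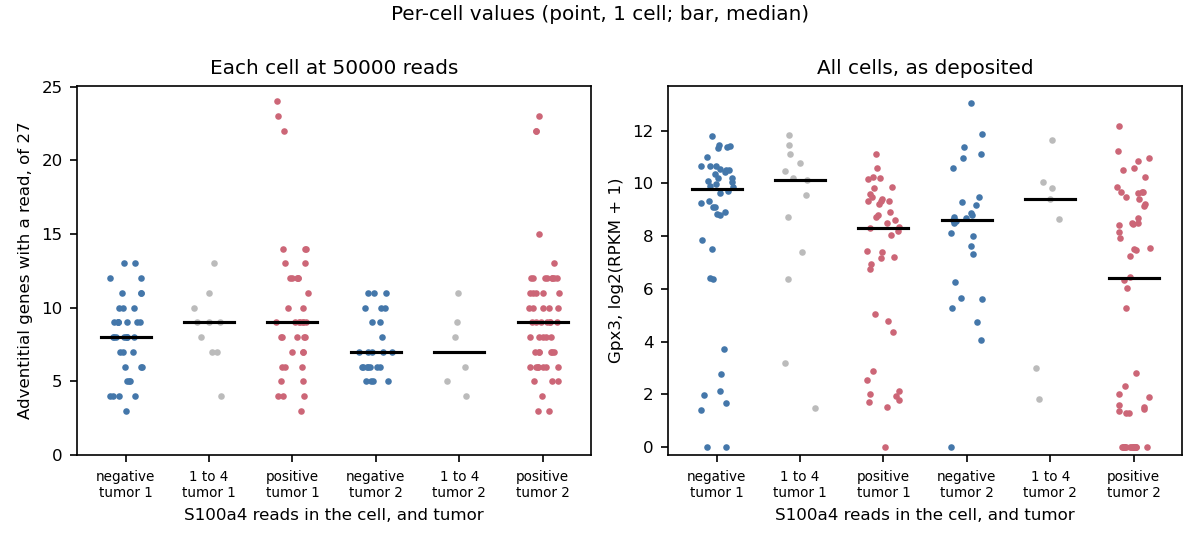
Left, number of the 27 adventitial genes with a read in each mCAF-like cell at 50000 reads; right, Gpx3 as log2(RPKM + 1) in all mCAF-like cells; each point is 1 cell and each bar the median of its group. The 6 cells with most of these genes, all S100a4-positive, stand at 22 to 24 genes with no other cell above 15, whereas for Gpx3 the groups overlap, with medians of 315.3 and 83.1 RPKM against 882.9 and 392.4 in negative cells.

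None of the other S100 genes passed the test, and most had the higher level in positive cells. S100a6, whose gene lies in the same cluster on chromosome 3 (90612894 to 90614414), was read in all compared cells. S100a6 had 1039.8 and 1592.6 CPM in tumor 1 and 1606.9 and 1985.2 in tumor 2, a log2 fold change of 0.40 ± 0.22 (p = 0.114). S100a16 had 203.99 and 305.5, and 178.3 and 280.2 CPM (0.56 ± 0.22, p = 0.045, adjusted p = 0.999 in edgeR). S100a10, the annexin A2 partner, had 189.2 and 236.3, and 226.9 and 355.1 CPM (0.43 ± 0.22), and S100a11 had 71.3 and 93.3, and 74 and 86.7 (0.25 ± 0.26).

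S100a13 had a log2 fold change of 0.17 ± 0.31 and S100a1 of -0.16 ± 0.26. The rarely read S100a8, S100b and the S100P-binding protein gene S100pbp had 2.01 ± 2.18, 3.04 ± 1.61 and 1.59 ± 1.32. The list's 9 tested members had a median of 0.43, 8 of them lay above 0 (52.2% of all genes did), and 1 had an unadjusted p under 0.05 with a higher level, where 2.56% of all genes did.

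Genes of proteins reported to bind S100A4 or to act as its receptors lay on both sides of 0, and none passed the test. The median of the 16 tested was 0.02, equal to that of all genes, and 2 had an unadjusted p under 0.05, both higher, where 2.56% of all genes did. Anxa2, the gene of annexin A2, had 973.3 and 1198.3 CPM in tumor 1 and 1105.0 and 1454.2 in tumor 2 (0.29 ± 0.20), and Rhoa, a GTPase of actin control, had 264.2 and 328.6, and 261.6 and 314.05 (0.23 ± 0.21). Myh9, the heavy chain of non-muscle myosin IIA, had 217.2 and 264.2 in tumor 1 but 503.3 and 336.8 in tumor 2 (-0.20 ± 0.30), so its order differed between tumors. Cd44, the hyaluronan receptor, had 98.7 and 160.4, and 175.4 and 272.7 CPM (0.61 ± 0.23, p = 0.0396), and Ereg, which encodes an EGF receptor ligand, had 3.43 ± 1.24 from at most 5 positive cells of a tumor. Among annexins, the median of 9 tested was 0.07 and Anxa3 had 0.59 ± 0.41.

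Of the CAF markers that the study followed, none differed past the test. Fap, a surface protease, had 219.1 and 300.9, and 246.9 and 254.4 CPM (0.20 ± 0.24). Pdgfra had 920.5 and 617.3 in tumor 1 and 438.6 and 564.02 in tumor 2 (-0.16 ± 0.27), while Pdgfrb (-0.17 ± 0.21), Sparc (-0.03 ± 0.18) and Vim (0.11 ± 0.26) lay near 0. Acta2, smooth muscle actin, had 382.8 and 1581.9 CPM in tumor 1 but 2367.0 and 1301.2 in tumor 2 (0.54 ± 0.76), so the tumors went opposite ways. Its median RPKM per cell was 14.1 in negative and 232.9 in positive cells of tumor 1, and 87.8 and 47.1 in tumor 2. With only cells of M of at least 8 the log2 fold change of Acta2 was 1.68 ± 0.27. Tnc, tenascin C, had 672.7 and 490.9 CPM in tumor 1 and 2501.0 and 514.8 in tumor 2 (-1.42 ± 0.49, p = 0.0304, adjusted p = 0.999 in edgeR), lower in positive cells of both.

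Interstitial collagens tended to the other side of 0, with 2 of 16 tested above it (52.2% of all genes were) and a median of -0.25 (-0.13 in tumor 1 and -0.31 in tumor 2). The median cell differed less, with a summed collagen level of 69011 CPM in negative and 70492 in positive cells of tumor 1, and 58168 and 57191 in tumor 2, and 3 negative cells held 22.4% and 32% of the negative reads. Col1a2 had 15820 and 13119, and 16171 and 11550 CPM (-0.43 ± 0.19), Col12a1 7216.4 and 5738.1, and 8490.5 and 5224.1 (-0.57 ± 0.21, p = 0.0375), and Col3a1 21314 and 19795, and 15066 and 17387 (-0.01 ± 0.17). Collagen-processing enzymes had a median of -0.26 over 16, with Leprel1 at -3.20 ± 0.91 and Pcolce2 at 2.06 ± 0.60. None of these was called, and the collagen medians were -0.15 and -0.38 without the 6 cells.

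The list of myofibroblast and activated CAF genes had a median of -0.18 over 25, with 4 lower and 1 higher at an unadjusted p under 0.05, where 1.6% of all genes were lower and 2.56% higher. The 4 were Tnc, Col12a1, the TGF-beta-induced matrix protein Tgfbi (-1.13 ± 0.44) and the stromelysin Mmp11 (933.2 and 320.97, and 726.4 and 536.7 CPM, -1.04 ± 0.30). The higher one was Sfrp1, a secreted Wnt antagonist (45.2 and 106.4, and 21.2 and 256.6 CPM, 2.33 ± 0.58), with 80.2% of its positive reads in 1 cell of tumor 2. Among metalloproteinases and inhibitors (median -0.11 over 15), Timp3, an inhibitor, had 755.6 and 1269.0, and 516.3 and 1001.2 CPM (0.80 ± 0.20).

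Other matrix lists were mixed. Small leucine-rich proteoglycans had 4 higher and 1 lower of 14 at an unadjusted p under 0.05 (2.56% and 1.6% of all genes). The 14 include the M genes Dcn and Lum, which were not among these 5. Prelp was at 161.8 and 268.9, and 33.6 and 388.4 CPM (2.05 ± 0.68). Elastic fibre genes had a median of 0.11 over 17, with Eln, elastin, at 552.1 and 881.1, and 211.3 and 1383.7 CPM (1.63 ± 0.49). Basement membrane genes had a median of -0.11 over 17, with Lamc3, a laminin chain, at 10.2 and 75.2, and 2.06 and 108.7 CPM (4.04 ± 0.73) and Col4a5 at 1.33 ± 0.33, which turned to -1.81 with M of at least 8. Matricellular genes (median -0.03 over 21) had 5 higher and 2 lower at that p (2.56% and 1.6% of all genes) and include the M gene Smoc2, which was not among the 7. The 5 included Spon2 and Smoc1, a calcium-binding matrix protein (8.29 ± 0.74, from 3 and 11 positive cells).

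In the complement list 4 of 11 tested members had a higher level in positive cells at an unadjusted p under 0.05, where 2.56% of all genes did. These were C3, Cfb, Cd55 and C4b, a classical pathway component (16 and 87.4, and 2.89 and 76.5 CPM, 3.40 ± 0.62). The 6 cells held 80.9% of the positive C4b reads in tumor 1, where the ratio without them was 1.11 (13.6 in tumor 2), and 81.5% of those of Cd55 in tumor 2, where it was 1.21 (2.24 in tumor 1). Without them, 2 members in place of 4 lay above 0 in both tumors. C2, a component of the same pathway, had the lower level in positive cells (175.8 and 88.3, and 129.6 and 106.9 CPM, -0.69 ± 0.27). Members thus lay on both sides of 0, and the list's median was -0.01. Chemokines and cytokines had a median of 0.31 over 22, with Cxcl9 at 4.93 ± 1.64 and Cxcl5 at -2.17 ± 0.72, where 1 cell held 99.8% of the Cxcl9 reads of each positive library.

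Transcription factors of mesenchymal cells had a median of 0.17 over 22, with Osr1 at 37.3 and 68.7, and 22.7 and 106.1 CPM (1.49 ± 0.41) and Foxc1 at 1.76 ± 0.73. Wnt targets had 0.18 over 12 (Myc 0.53 ± 0.42), TGF-beta and activin genes 0.03 over 25 (Inhbb -0.46 ± 0.24, Fstl3 -0.93 ± 0.48), and integrins -0.05 over 13 (Itga10 -0.92 ± 0.46, Itga3 1.17 ± 0.58). Actin cytoskeleton genes had a median of 0.01 over 36, but 0.40 in tumor 1 and -0.38 in tumor 2, with Mylk, myosin light chain kinase, at -0.60 ± 0.22 and Tmsb4x at -0.42 ± 0.23.

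Lists of the state of the cell showed no common direction. Cell cycle genes had medians of -0.51 in tumor 1 and 3.35 in tumor 2 over 26 tested, and their summed level was 680.8 and 407.04 CPM in tumor 1 and 257.6 and 535.9 in tumor 2, of which 3 cells held 42.9% to 66.7%. Rrm2 and Rrm1, subunits of ribonucleotide reductase, had 5.78 ± 1.74 and -0.41 ± 0.24. Hypoxia and glycolysis genes had a median of -0.25 over 31 (0.16 in tumor 1 and -0.56 in tumor 2), and Ankrd37 and Car9 had no read in the compared cells of tumor 1. Antioxidant genes had 0.14 over 30, where Nqo1 (7.28 ± 1.60, 5 and 7 positive cells) lay opposite to Gpx3.

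Interferon and MHC class I genes had a median of 0.18 over 30 (Psmb8 0.93 ± 0.34, Ifitm1 -1.05 ± 0.30), and immediate early genes, which rise during tissue dissociation, 0.06 over 34 (Hspa1a 0.94 ± 0.31, Atf3 0.82 ± 0.35). Lysosomal cathepsins had -0.14 over 20 (Ctsc -0.65 ± 0.22, Ctss -3.51 ± 1.31), adipogenic and lipid genes -0.02 over 18 (Apoe 1.57 ± 0.59), oxidative phosphorylation -0.08 over 73 (Ndufs7 -0.44 ± 0.25, Ndufv3 -0.43 ± 0.26) and cytosolic ribosomal proteins -0.18 over 72 (Rps19 -0.52 ± 0.28, Rps15a -0.53 ± 0.29). In the last 2 lists no member had an unadjusted p under 0.05.

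Marker lists of other cells held few tested genes. Mural markers had medians of -0.30 in tumor 1 and -0.74 in tumor 2 over the 10 tested outside the 6 V genes (Steap4 0.76 ± 0.24, Gucy1a3 -0.78 ± 0.27), and Rgs5, one of the V genes, was at 367.7 and 95.4 CPM in tumor 1 and 134.6 and 73 in tumor 2. Schwann and developmental CAF markers had 2.31 over 8, among them Trf and Mia (5.36 ± 1.43, where 1 positive cell of tumor 1 held all of its reads there), but -0.08 with M of at least 8. Esam, an endothelial and pericyte adhesion protein, had 14.6 and 0.779, and 60.4 and 15.9 CPM (-2.99 ± 0.70). Krt19 had reads in 1 negative cell alone. The myeloid gene Lyz2, at 6.6 and 1.03 CPM in negative cells, had no read in positive cells, and Tyrobp (-2.42 ± 2.36) and Cd79b (-0.45 ± 5.81) came from at most 1 cell per library.

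**Figure D4:**
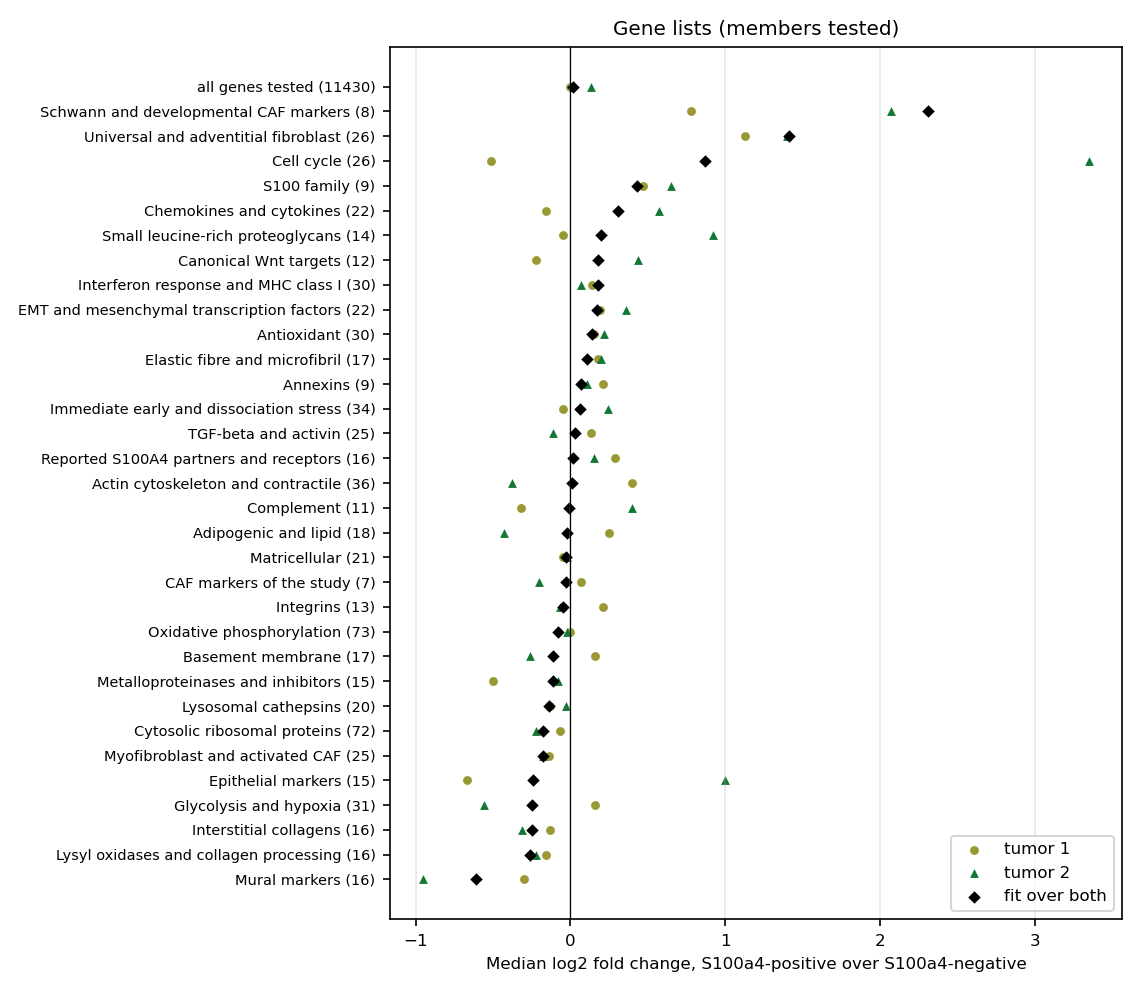
Median log2 fold change of S100a4-positive over S100a4-negative mCAF-like cells for each gene list with 7 or more tested members, with circles for tumor 1, triangles for tumor 2 and diamonds for the fit over both; numbers in parentheses are members tested, M and V genes included. The adventitial list lies at 1.13 and 1.40 in the 2 tumors, and the cell cycle list at -0.51 and 3.35.

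Correlation with S100a4 across cells gave a further description, with no test, since cells of a tumor share their plate and their depth of 50000 reads. The highest Spearman coefficients by the weaker tumor were those of 2210016F16Rik (0.35 and 0.34), Fth1, the ferritin heavy chain (0.29 and 0.34), Zkscan17 (0.35 and 0.28), Rhoa (0.28 and 0.29), Ubl5 (0.35 and 0.28), Lmo4 (0.27 and 0.30), Atp2c1 (0.33 and 0.27), Prelp (0.26 and 0.36), Pmp22 (0.26 and 0.31) and Gsn (0.37 and 0.25). At the low end, after Gpx3, were Cd63 (-0.27 and -0.24), Akr1b8 (-0.24 and -0.34), Col12a1 (-0.23 and -0.36) and Ptk7 (-0.22 and -0.35). All were weak, and the medians over the 6343 genes were 0.04 and 0.05.

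The same split in vCAF-like cells (90 positive cells in tumor 1 and 75 in tumor 2) was set beside these values. In a fit of 8 libraries edgeR called 0 of 11591 genes for a difference of the S100a4 effect between the classes (0% called), with 652 at an unadjusted p under 0.05. After thinning 3 were called (0.0259%), 1 toward a higher effect in mCAF-like cells (0.00864%) and 2 toward a lower one (0.0173%). Tnxb had log2 fold changes of 5.34 in mCAF-like and -0.62 in vCAF-like cells, a difference of 5.99 (adjusted p = 0.412 in edgeR, and 0.0472 after thinning). Dpt had 2.31 and 0.26 (adjusted p = 0.458), Gpx3 -1.18 and -0.68 (0.924), and Ly6c1 3.22 and 5.35 (0.926). S100a6 had 0.40 and 0.56 and S100a16 0.56 and 0.59, with differences of -0.13 and -0.01. Besides Tnxb, Tinagl1 (-3.33) and Ackr3, a scavenger receptor of chemokines (-4.56), were called for this difference after thinning. Before thinning, Ackr3 had log2 fold changes of 0.23 in mCAF-like and 5.53 in vCAF-like cells, and Tinagl1 had -3.05 and -0.03. Among mCAF-like cells, 1 cell held 78.6% and 88.6% of the negative Tinagl1 reads of the 2 tumors. The 6 cells described above held 93.2% and 97.2% of the positive Tnxb reads.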

How the data were processed

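The authors deposited raw read counts per gene and RPKM values for 768 Smart-seq2 wells. Per the study's methods they aligned reads with STAR to mm10, counted RefSeq genes and 92 ERCC spike-ins, and normalized to RPKM, and each plate held 1 tumor. The deposited counts were used for the groups, sums and tests, and the deposited RPKM values for M, V, the levels per cell, the filter on low genes and the limma alternative.

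Counts of the cells of each group and tumor were summed. The tested genes had a mean RPKM over the compared cells of 1 or more, and the test was made with edgeR 4.0.16 (quasi-likelihood, TMM, tumor as a block, Benjamini-Hochberg adjustment over all genes tested, R 4.3.3), with DESeq2 1.42.0 and limma 3.58.1 as alternatives. S100a4 stayed in the fit and the adjustment and was not counted. The block was used because both groups of a plate come from the same tumor, and with 2 tumors the correlation of their deviations (0.101) cannot check it further. Standard errors were derived from each log2 fold change and edgeR's test statistic for it. With 2 tumors little spread can be measured within a gene, so the p-values lean on dispersions that edgeR shares across genes. Cells were not used as replicates. Sequenced reads are not independent molecules, so intervals cover counting error only. Library totals are given with the results. Ratios per tumor outside the fit used 0.5 reads added to each count for list medians and none for single genes. The test was checked on simulated counts.

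Named genes were S100a4, the 10 of smallest p in each direction that went the same way in both tumors with a read in at least 5 cells of the higher group of each (used as too few passed the threshold), all tested S100 genes and CAF markers, the 2 of smallest p in every other list, and the 10 highest and 5 lowest correlations with S100a4. The M and V genes were left out of the choices by p. Other names were chosen after their values were seen. Members and lists were chosen with earlier results of these data known. No sequence is printed. 2 lists, those of the 6 M and 6 V genes, served only to choose cells.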

Additional observations from a re-analysis of the deposited data

How the results depend on the processing

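The share of tested genes called in S100a4-positive against S100a4-negative mCAF-like cells was 0% in the main test and was computed under 17 other settings. It was 0% also without the replicate block, with DESeq2 size factors in edgeR, with a cut at 1 S100a4 read, without cells with Epcam or Ptprc reads, at an adjusted p of 0.001, and with S100a4 left out of the adjustment (chosen after seeing the data). It was 0.00652% (1 gene) without a filter on low genes, 0.00817% with filterByExpr, 0.00878% with M of at least 5 and 0.00892% with M of at least 8 (the last chosen after seeing the data), each time C3 alone, and 0.0175% (2 genes) with a cut at 20 reads. These calls rested on S100a4 in the ranking: with it left out, each of these 5 settings called 0 genes (adjusted p of C3 from 0.0565 to 0.0868). It was 0.0437% (5 genes) when cells were thinned and grouped by thinned S100a4 reads, 0.0612% (7 genes) with ERCC reads as library size, where the median of all genes moved to 0.60 (2 genes without S100a4 in the ranking), and 0.288% (33 genes) with thinned cells in the main groups. It was 0.717% (82 genes) with DESeq2, 3.22% with limma on mean log2(RPKM + 1) and 4.44% with a pseudocount of 0.1, where the median of all genes was 0.52. The cause of these differences was not tested. The difference between classes gave 0 genes without the replicate block and 3 after thinning. The mean share of S100a4-positive cells over the 2 tumors was 52.5% ± 13.8 (SD, n = 2), and 35.4% after thinning. Leaving out a tumor left 1 library per group and so values with no test: 6 of the named genes had the other sign without tumor 1 and 2 without tumor 2. The other sign was found in 17 named genes with ERCC library size, in 11 and 13 in the limma fits with pseudocounts of 1 and 0.1, in 5 with M of at least 8, in 5 when grouped by thinned reads, in 3 with a cut at 20 reads, and in 1 each with M of at least 5, thinned cells and no replicate block. Of the 20 leading genes, Flt1 changed sign with M of at least 8 and Apod in both limma fits. The adventitial list without the 6 cells was also chosen after seeing the data. With 2 tumors, and read depth that moved with the groups, differences of the simulated sizes would mostly stay undetected.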
